A study of Capra hircus with 6 samples.

Results

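KAT2B, CREBBP, EHMT1 and KDM5B encode enzymes that add acetyl groups to histones, or add or remove methyl groups. Each was a host of circular RNAs (circRNAs) in goat ovarian follicles. Their circRNAs were taken as all entries whose deposited gene identifier was 102184382 (KAT2B), 102187824 (CREBBP), 102189411 (EHMT1) or 102178381 (KDM5B), with a circRNA defined by its chromosome, start, end and strand. This gave 21 circRNAs of 13950 in all, and of 2040 with exactly 1 usable host gene. KAT2B had 8 of them, EHMT1 5, and CREBBP and KDM5B 4 each. Together they held 1019 back-splice reads, 2.34% of the reads of circRNAs with a usable host gene.

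A circRNA forms when the donor at the end of a downstream exon is joined to the acceptor at the start of an upstream exon, and the read across this joint, the back-splice or junction read, marks the circle. Acetylation of histone tails by KAT2B (also called PCAF) and by CREBBP, the CREB-binding protein, accompanies active transcription. EHMT1 methylates histone H3 at a lysine linked to silent chromatin, and KDM5B removes methyl groups from another lysine of histone H3 that marks active promoters. In the pre-ovulatory follicle, gonadotropin receptors signal through cyclic AMP and CREB, the factor to which CREBBP binds.

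Pre-ovulatory ovarian follicles came from 3 Boer goats and 3 Macheng black goats, with 1 library per animal, and the breeds were compared. Goats of both breeds had shown normal oestrous cycles and had been given 1000 IU of pregnant mare serum gonadotropin (PMSG) and 500 IU of human chorionic gonadotropin (hCG), so there was no untreated group. The age of the animals and the number of follicles per sample were not given in the sources used here. Values are counts of back-splice reads, also given as CPM, counts per 1000000 listed back-splice reads of a library after trimmed mean of M-values (TMM) scaling. Positions are those of the files, counted from 1, and no source used here names their genome build. In comparisons, means are given ± SD, and differences between breeds as the log2 ratio of Boer over Macheng black ± SE from edgeR's quasi-likelihood test. The samples are separate animals, and the tests set differences between breeds against the spread between animals. For this spread, edgeR shares information over all tested features.

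Libraries held between 23480 (Macheng black 3) and 74796 (Boer 1) listed back-splice reads, so that 1 read was worth between 15.5 and 38.1 CPM. No entry had under 2 reads, and a circRNA without an entry in a library may have had 0 or 1 read there, or the caller may have missed it. Of 33 marker genes of granulosa, theca, oocyte, stroma, vessel and leukocyte cells, 1 was a circRNA host, NR5A2, a nuclear receptor of granulosa cells, with 0 to 16 reads per library. The follicular cell types could thus not be checked from back-splice reads, and in whole follicles fewer cells of a type and less RNA per cell cannot be told apart.

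All 8 KAT2B circRNAs lay on the plus strand of chromosome 1, between 154740553 and 154802456. The circRNA from 154761954 to 154763525, which spanned 1572 bases, was listed in all 6 libraries with 464 of the gene's 611 reads. The other 7 had 2 to 57 reads in total. They were arranged around a few shared splice sites. An acceptor at 154740553 served 3 circRNAs with 114 reads, the acceptor of the leading circRNA served 2 with 472 reads, and the donor at 154763525 served 3 with 523 reads, 85.6% of the gene's total. The circRNA from 154799332 to 154802456, with 2 reads in Macheng black 2, shared no site with another.

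EHMT1 circRNAs lay on the minus strand of chromosome 11, between 105079725 and 105124267, where the higher coordinate is the upstream side. Of the 5, 4 used the same acceptor at 105124267, and these 4 held 266 of 272 reads. They ran to donors at 105121243, 105113226, 105104963 and 105079725, spanning 3025, 11042, 19305 and 44543 bases. The shortest of them, from 105121243 to 105124267, led with 224 reads and was listed in all 6 libraries. The remaining circRNA, from 105113226 to 105121689, had 6 reads and shared its donor with that of 11042 bases.

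The 4 CREBBP circRNAs, on the minus strand of chromosome 25 between 3163168 and 3211655, formed a chain. The leading circRNA, from 3182450 to 3211655, was listed in all 6 libraries with 55 of 81 reads and spanned 29206 bases, most of them a single listed intron. It contained the listed exons from 3182450 to 3182626 and from 3210943 to 3211731, the latter up to position 3211655. A circRNA from 3210943 to 3211655, with 7 reads, used the same acceptor and lay within the second of these exons. Another, from 3163168 to 3182626 with 5 reads, had its acceptor at the edge of the 177-base exon whose other edge was the donor of the leading circRNA. It shared its own donor with the circRNA from 3163168 to 3164804, which had 14 reads.

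KDM5B circRNAs lay on the plus strand of chromosome 16, between 77546722 and 77563929, and were the shortest of the 4 genes, with a median span of 2278 bases. The leading circRNA, from 77546722 to 77549195, had 40 of 55 reads and was listed in 5 libraries. The other 3 were each listed in 1 library. That from 77561848 to 77563929, with 11 reads in Boer 1, held 3 listed exons of 159, 182 and 163 bases. Those from 77554589 to 77560187 in Macheng black 1 and from 77559465 to 77560187 in Boer 3 had 2 reads each and shared a donor.

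**Figure D1:**
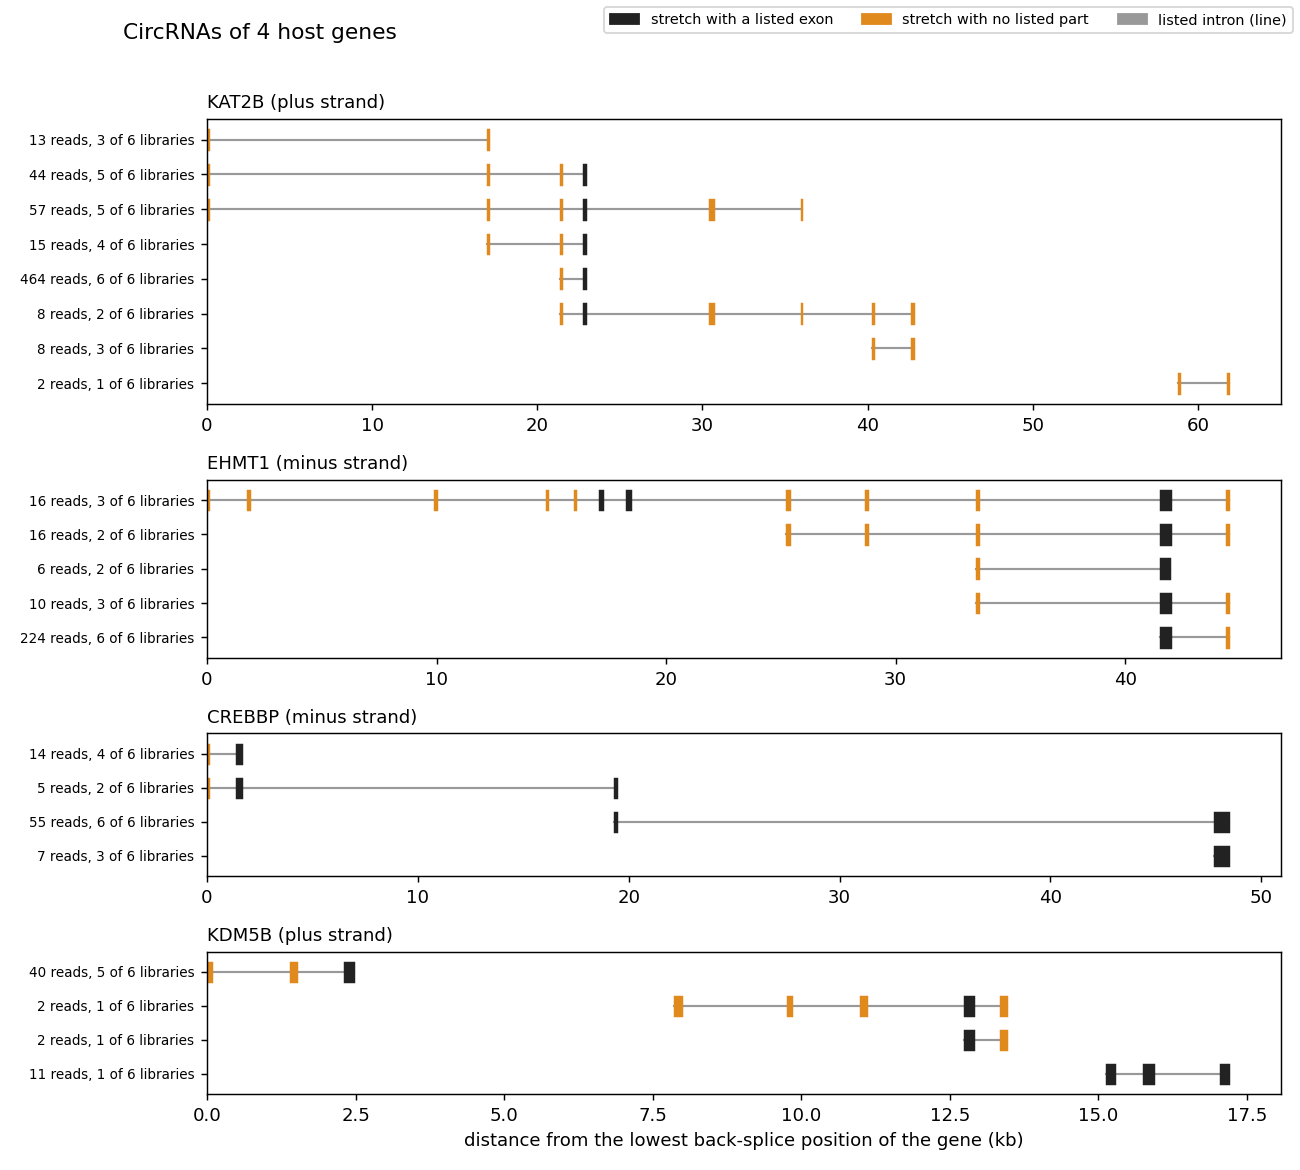
Each row is a circRNA of KAT2B, EHMT1, CREBBP or KDM5B, drawn to scale against the distance in kb from the lowest back-splice position of its gene, with its total back-splice reads and number of libraries at the left. Grey lines are listed introns, black blocks are stretches outside introns that hold a listed exon, and orange blocks are stretches with no listed part; 18 of the 21 circRNAs share at least 1 back-splice position with another of the same gene.

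Over the 4 genes, 18 of 21 circRNAs (85.7%) shared a back-splice position with another circRNA of the gene, against 760 of 1063 (71.5%) in the 168 other usable host genes with at least 4 circRNAs. The leading circRNA held 75.9% of all reads in KAT2B, 82.4% in EHMT1, 67.9% in CREBBP and 72.7% in KDM5B. In the 168 other genes this share had a median of 53.3%, with quartiles of 40.4% and 67.5%. These are descriptions without a test, and the genes were not matched by number of circRNAs or of reads. The median span, 6047 bases, was close to the 6560 bases of all circRNAs with a usable host gene.

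The lists of exons and introns held no part shorter than 150 bases. Among 1481 distinct exons and 3348 distinct introns listed for usable host genes, the shortest of each kind was of this length. In the 21 circRNAs, 39 stretches that differed in start or end lay outside the listed introns. Overlapping ones of 472, 468 and 451 bases in EHMT1 were counted separately. Of the 39, 14 held a listed exon and 25 held no listed part. All but 1 of the 25 were shorter than 150 bases, from 78 to 146 bases. The exception, at 154770971 to 154771225 in KAT2B, had 255 bases and lay between listed introns. In KAT2B, 3 circRNAs (154740553 to 154757624, 154780802 to 154783338 and 154799332 to 154802456) were listed with an intron only. In each, the intron was flanked on both sides by unlisted stretches of 111 to 146 bases that ended at the back-splice positions. The same held for 352 of the 628 intron-only circRNAs of usable host genes (56.1%). The leading KAT2B circRNA was listed with a 182-base exon and a 1297-base intron, and an unlisted stretch of 93 bases made up its upstream end, so that 275 of its bases lay outside the intron. Junction reads do not show whether the introns are kept in the circle.

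Some ends did not meet the listed exon edges. The leading EHMT1 circRNA ended 4 bases inside an exon listed from 105121239 to 105121431. Both CREBBP circRNAs with the acceptor at 3211655 began 76 bases inside the 789-base exon. The EHMT1 acceptor at 105121689 lay within an exon from 105121553 to 105121710, which was not listed for that circRNA. The lists also varied between libraries. For the leading EHMT1 circRNA, Macheng black 1 alone listed a further exon of 158 bases, from 105121553 to 105121710. The deposited spliced length, which includes the listed intron of 2417 bases, was 2768 bases there instead of 2610. Such differences were found in 176 of the 899 circRNAs of usable host genes that were listed in at least 2 libraries (19.6%), and in 1 of 17 such circRNAs of the 4 genes.

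In back-splice reads per gene, the order was KAT2B, EHMT1, CREBBP and KDM5B. A back-splice count refers to a junction and needs no scaling for length, but the sum grows with the number of circRNAs. KAT2B had 194, 85 and 69 reads in Boer 1, 2 and 3 and 97, 118 and 48 in Macheng black 1, 2 and 3. Its level lay between 1615 and 2999 CPM, above that of EHMT1 in 6 of 6 libraries, and KAT2B ranked 9th by reads among 780 host genes. EHMT1 had 74, 38 and 52 reads in Boer and 29, 59 and 20 in Macheng black, or 761 to 1300 CPM, again above CREBBP in 6 of 6 libraries. CREBBP had 20, 8 and 13 reads in Boer and 11, 17 and 12 in Macheng black, or 274 to 457 CPM. KDM5B had 33, 3 and 7 reads in Boer and 8, 4 and 0 in Macheng black, and its level overlapped that of CREBBP, being higher in Boer 1 only. Boer 1 thus held 33 of the gene's 55 reads.

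In each of the 4 genes the libraries of the breeds overlapped, and no difference passed an adjusted p of 0.05. The KAT2B mean was 2507 ± 774 CPM in the Boer goats against 2371 ± 476 CPM in the Macheng black goats (n = 3 per breed, log2 ratio 0.08 ± 0.36, edgeR adjusted p = 0.969). This ratio was below 0 without Boer 1 (-0.08), without Boer 2 (-0.04) and without Macheng black 3 (-0.08). Means for EHMT1 were 1220 ± 78.1 CPM in Boer against 953 ± 292 CPM (n = 3 per breed, log2 ratio 0.34 ± 0.38, edgeR adjusted p = 0.967). Macheng black 1 and 3 lay below all 3 Boer libraries for EHMT1, while Macheng black 2, at 1290 CPM, lay within their range. Means for CREBBP were 296 ± 19.2 CPM in Boer against 378 ± 75.1 CPM (n = 3 per breed, log2 ratio -0.33 ± 0.54, edgeR adjusted p = 0.967). Means for KDM5B were 259 ± 220 CPM in Boer against 104 ± 112 CPM (n = 3 per breed, log2 ratio 1.31 ± 0.78, edgeR adjusted p = 0.967). Without Boer 1 the KDM5B log2 ratio was 0.33, and without Macheng black 1 it was 2.33. Of all 431 host genes tested, 1 passed an adjusted p of 0.05 (0.232%) and 27 an unadjusted p of 0.05 (6.26%), none of them among the 4, and the median log2 ratio was 0.11. The biological coefficient of variation of host genes was 0.476.

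**Figure D2:**
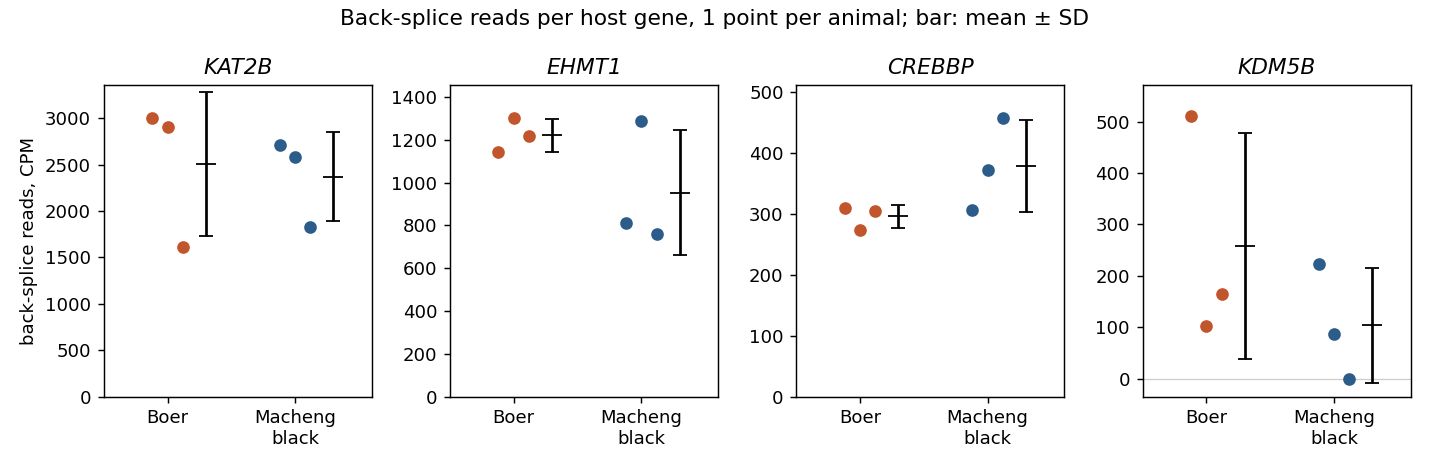
Summed back-splice reads of each host gene in CPM (y axis, a separate scale for each gene) for the 3 Boer and 3 Macheng black libraries, 1 point per animal, with the mean ± SD beside them. The breeds overlap in all 4 genes, and the Boer mean of KDM5B rests on Boer 1 at 510 CPM.

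Of the 21 circRNAs, 13 had at least 2 reads in at least 3 libraries and entered the test of single circRNAs, 6 of KAT2B, 3 of EHMT1, 3 of CREBBP and 1 of KDM5B. None of the 13 passed an adjusted p of 0.05 (edgeR quasi-likelihood test, lowest adjusted p = 0.827), against 13 of all 3712 tested (0.35%). At an unadjusted p under 0.05 there was 1 of 13, against 194 of 3712 (5.23%), and DESeq2 also called none of the 13. Their median log2 ratio was 0.20, with 9 above and 4 below 0, beside a median of 0.11 over all tested circRNAs. In 1 of the 13 every Macheng black library was above every Boer library, against 178 of 3712 (4.8%), and in none was every Boer library above, against 257 of 3712 (6.92%).

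That 1 KAT2B circRNA, which also had the lowest p, ran from 154740553 to 154757624 and was listed in Macheng black only. It had 6, 4 and 3 reads in Macheng black 1, 2 and 3, or 167, 87.4 and 114 CPM, and was listed in no Boer library. Its entry into the test thus rested on the 3 Macheng black libraries alone, so the lack of overlap followed from the filter. With Boer set at 1 read per library, 3 over the group, the Macheng black level of this circRNA was 5.05-fold higher. That value is not a lower limit, since the caller may have missed Boer reads. The difference did not pass (edgeR unadjusted p = 0.0136, adjusted p = 0.827). Among the 3712 tested circRNAs, 35 (0.943%) likewise had entries in each Macheng black library but none in Boer. The 2 longer circRNAs from the same acceptor were listed in both breeds. That ending at 154763525 had 13, 5 and 6 reads in Boer and 4, 16 and 0 in Macheng black (log2 ratio 0.06 ± 0.85, edgeR adjusted p = 0.9998). That ending at 154776600 had 16, 0 and 14 reads in Boer and 10, 13 and 4 in Macheng black (log2 ratio -0.26 ± 0.70). Reads from this acceptor were thus listed in every library.

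The leading KAT2B circRNA had 158, 66 and 47 reads in Boer 1, 2 and 3 and 75, 77 and 41 in Macheng black 1, 2 and 3. Boer 3, at 1100 CPM, was the lowest of the 6 and Boer 1, at 2442 CPM, the highest, so the Macheng black libraries lay within the Boer range. By reads it ranked 48th of 13950 circRNAs and 10th of the 2040 with a usable host gene. Its means were 1933 ± 728 and 1779 ± 279 CPM in Boer and Macheng black (n = 3 per breed, log2 ratio 0.12 ± 0.41, edgeR adjusted p = 0.9998). Of the rarer KAT2B circRNAs, the junction of 154763525 with 154757479 was read 4, 6 and 2 times in Boer and 0, 3 and 0 times in Macheng black. That from 154780802 to 154783338 had 2 or 3 reads in each of Boer 2, Macheng black 1 and Macheng black 2. With 3 and 5 reads, in Boer 1 and 2 alone, the circRNA from 154761954 to 154783338 was not tested.

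The leading EHMT1 circRNA had 63, 33 and 39 reads in Boer and 27, 45 and 17 in Macheng black. Boer levels were 974, 1129 and 913 CPM. Macheng black 2, at 984 CPM, lay within them and Macheng black 1 and 3, at 753 and 647 CPM, lay lower (log2 ratio 0.32 ± 0.39, edgeR adjusted p = 0.9998). Its longer companions were patchy. That from 105079725 had 5, 6 and 5 reads in Boer 2, Boer 3 and Macheng black 2. That from 105113226 to 105124267 had 4, 3 and 3 reads in Boer 1, Boer 3 and Macheng black 3. The donor at 105104963 had 7 and 9 reads in Boer 1 and Macheng black 2, and the circRNA ending at 105121689 had 4 and 2 reads in Boer 3 and Macheng black 1.

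The leading CREBBP circRNA had 15, 3 and 5 reads in Boer and 5, 17 and 10 in Macheng black. Macheng black 2 and 3, at 372 and 381 CPM, were above every Boer library, and Macheng black 1, at 140 CPM, was within the Boer range of 103 to 232 CPM (log2 ratio -0.90 ± 0.64, edgeR adjusted p = 0.9998). Reads of the circRNA from 3163168 to 3164804 were 3 and 5 in Boer 2 and 3 and 4 and 2 in Macheng black 1 and 3. The exon circRNA from 3210943 had 2 or 3 reads in Boer 1, Boer 2 and Macheng black 1. The leading KDM5B circRNA had 22, 3 and 5 reads in Boer and 6, 4 and 0 in Macheng black (log2 ratio 1.10 ± 0.95, edgeR adjusted p = 0.9998). This ratio was 0.32 without Boer 1, 0.63 without Macheng black 3 and 1.88 without Macheng black 1.

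The share of a gene's reads in its leading circRNA spread less between libraries in KAT2B and EHMT1 than in CREBBP and KDM5B, which had fewer reads. For KAT2B it ran from 65.3% (77 of 118 reads in Macheng black 2, exact Clopper-Pearson 95% interval 55.9% to 73.8%) to 85.4% (41 of 48 in Macheng black 3, 72.2% to 93.9%). Breed means were 75.7% ± 6.87 for Boer against 76.0% ± 10.1 (n = 3 per breed, p = 1 in a two-sided exact permutation test). For EHMT1 it ran from 75% in Boer 3 to 93.1% in Macheng black 1, with means of 82.3% ± 6.40 and 84.8% ± 8.42 (n = 3 per breed, p = 0.8 in the same exact test). For CREBBP the range was from 37.5% (3 of 8 reads in Boer 2, exact 95% interval 8.52% to 75.5%) to 100% (17 of 17 in Macheng black 2, 80.5% to 100%). CREBBP means were 50.3% ± 21.4 for Boer against 76.3% ± 28.0 (n = 3 per breed, p = 0.2 in the same exact test). The difference of -25.9 points was -41.3 without Macheng black 1 and -14.1 without Macheng black 2. For KDM5B, over the 5 libraries with reads, means were 79.4% ± 18.0 for Boer (n = 3) and 87.5% ± 17.7 for Macheng black (n = 2, p = 0.6 in the same exact test). The smallest p that 3 animals against 3 allow is 0.1, and the intervals cover counting error only.

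The use of circRNAs within a host gene was tested over 122 genes with at least 2 tested circRNAs. No gene passed an adjusted p of 0.05 (0%), and 3 (2.46%) had an unadjusted Simes p under 0.05 in edgeR's diffSpliceDGE. KAT2B was among the latter (edgeR adjusted p = 0.916), through the circRNA from 154740553 to 154757624. This circRNA entered the test through Macheng black alone, and its fitted log2 ratio relative to the gene's other circRNAs, -3.74, depends on the prior count. EHMT1 and CREBBP had adjusted p of 0.996 in the same edgeR test. KDM5B, with 1 tested circRNA, could not enter.

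The number of distinct circRNAs per library was 5, 5 and 4 in Boer and 5, 7 and 3 in Macheng black for KAT2B (p = 1, two-sided exact permutation test). It was 3 in each Boer library and 3, 1 and 2 in Macheng black for CREBBP (p = 0.4, same exact permutation test). EHMT1 had 3, 2 and 4 against 2, 3 and 2, and KDM5B 2, 1 and 2 against 2, 1 and 0 (p = 0.7 for each, same exact permutation test). After thinning each library to 23480 reads, the means for CREBBP were 2.17 ± 0.889 and 1.70 ± 0.608 (n = 3 per breed). Macheng black 3, with the fewest listed reads, had the fewest KAT2B and KDM5B circRNAs.

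**Figure D3:**
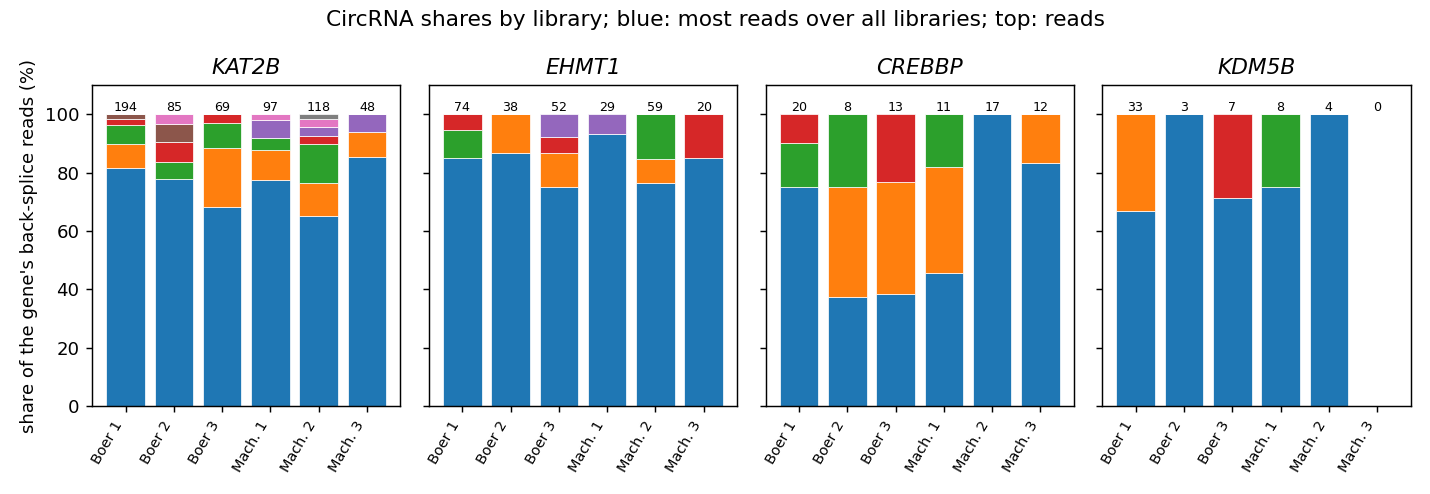
Share of each gene's back-splice reads (y axis, percent) by circRNA in each library (x axis; Mach. is Macheng black), with the number of reads above each bar. The blue part is the circRNA with most reads over all libraries, which makes up 65.3% to 85.4% of KAT2B and 37.5% to 100% of CREBBP; KDM5B had no listed circRNA in Macheng black 3.

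Each entry also carries a count of non-junction reads. For circRNAs nested in each other in the same library, the outer had at least as many non-junction reads as the inner in 50 of 50 pairs of the 4 genes and in 1703 of 1703 pairs of usable host genes. The count therefore grew with the stretch covered, and sums over nested circRNAs can count a read more than once. The leading KAT2B circRNA had 146, 141 and 107 non-junction reads in Boer and 135, 116 and 151 in Macheng black. Its junction share, junction reads over junction plus non-junction reads, was 52.0%, 31.9% and 30.5% in Boer 1, 2 and 3 and 35.7%, 39.9% and 21.4% in Macheng black 1, 2 and 3. The highest and lowest of these had exact 95% intervals of 46.2% to 57.7% and 15.8% to 27.8%, which do not overlap. These libraries were picked as the extremes, and the intervals cover counting error of reads only, not the spread between animals. The leading EHMT1 circRNA had 86, 83 and 123 non-junction reads in Boer and 82, 81 and 135 in Macheng black, and shares of 42.3%, 28.4% and 24.1% against 24.8%, 35.7% and 11.2%.

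Pooled over libraries, the junction share was 36.8% for the leading circRNA of KAT2B and 27.5% for that of EHMT1, above 95.4% and 92.7% of the 2040 circRNAs with a usable host gene. It was 3.21% for KDM5B, above 59.9%, and 0.430% for CREBBP, above 11.96%. These ranks set side by side circRNAs listed in different libraries, whose shares differed by library. Spans differed too, at 1572 bases for KAT2B, 3025 for EHMT1, 2474 for KDM5B and 29206 for CREBBP. Non-junction reads grew with the stretch covered, and the ranks were not adjusted for span. The CREBBP circRNA, which covers a 28316-base intron, had 1569 to 2828 non-junction reads per library. The breeds overlapped for each. Mean shares of the leading circRNA were 38.1% ± 12.01 in Boer and 32.3% ± 9.73 in Macheng black for KAT2B (n = 3 per breed, p = 0.6 in a two-sided exact permutation test), and 31.6% ± 9.50 and 23.9% ± 12.3 for EHMT1 (n = 3 per breed, p = 0.5 in the same exact test). Summed over all circRNAs of a gene, they were 6.48% ± 2.72 and 4.67% ± 1.59 for KAT2B and 8.08% ± 5.53 and 8.25% ± 4.09 for EHMT1 (n = 3 per breed, p = 0.4 and 1 in the same exact test). Those of CREBBP were 0.551% ± 0.287 and 0.574% ± 0.223 (n = 3 per breed, p = 1 in the same exact test). Those of KDM5B were 4.25% ± 3.85 in Boer (n = 3) and 1.88% ± 0.537 in Macheng black (n = 2, p = 0.6 in the same exact test). This difference of 2.37 points was 0.230 without Boer 1 and 3.97 without Boer 2. Summed shares depend on which long circRNAs a library lists. In Boer 2, the KAT2B circRNA from 154761954 to 154783338 added 5 junction and 868 non-junction reads. In Boer 3, the EHMT1 circRNA from 105079725 to 105124267 added 6 and 643.

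The junction share moved with the library. Over the 203 circRNAs of usable host genes that were listed in all 6 libraries, its median was 11.5% in Boer 1, 6.43% in Macheng black 2, 5.93% in Boer 3, 4.61% in Macheng black 1, 3.39% in Boer 2 and 2.54% in Macheng black 3. This was also the order of the libraries by listed back-splice reads, but both measures hold the same junction reads and are not independent. For these circRNAs, median junction reads were 22 in Boer 1 and 7 in Macheng black 3. Median non-junction reads were 178 and 250. Boer 1 had the highest share and Macheng black 3 the lowest for the leading circRNAs of KAT2B and EHMT1. Junction reads of the leading KAT2B circRNA differed 3.85-fold between the highest and lowest library, and its non-junction reads 1.41-fold. For EHMT1 these ratios were 3.71 and 1.67. The part of library make-up in these shares was not tested.

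**Figure D4:**
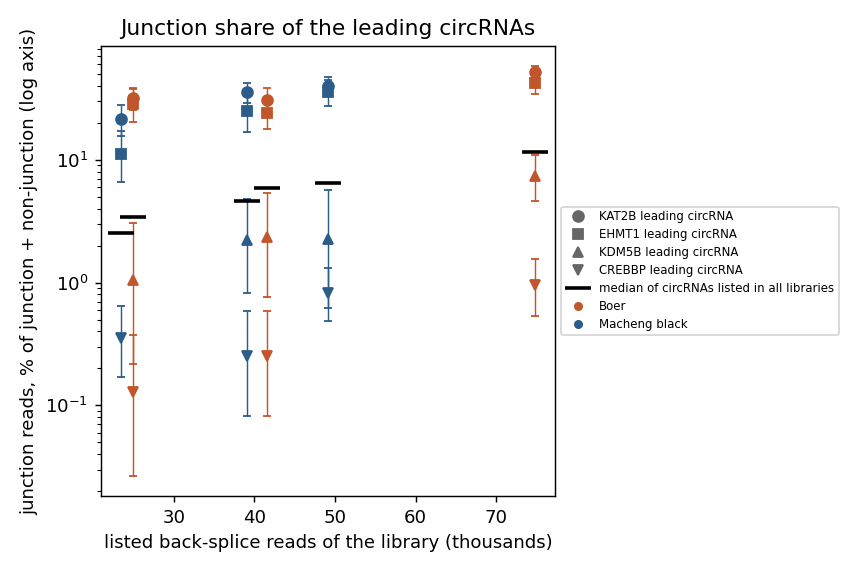
Junction reads as a percent of junction plus non-junction reads (log y axis) for the leading circRNA of each gene, against the listed back-splice reads of the library (x axis), with exact 95% intervals and colours for the breed. KAT2B and EHMT1 lie above the median of the 203 circRNAs listed in all libraries (black bars) in each library, KDM5B and CREBBP below it where listed. The shares are not adjusted for the span of the circRNAs. The library with 74796 reads has the highest share for each gene, but both axes hold the same junction reads.

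Of 90 genes in lists of histone acetyltransferases, deacetylases, methyltransferases and demethylases, 83 were found in the name table and 7 were usable hosts, the 4 described here and 3 more. KMT5B, a methyltransferase of histone H4, had 4 circRNAs with 14 reads in Boer 1 and 2 in Macheng black 2. NCOA3, a nuclear receptor coactivator, had 2 reads in Boer 1 and 3 in Macheng black 3, and HDAC4, a deacetylase, had 2 reads in Boer 1. None of these 3 had reads in enough libraries to be tested, and none of the 4 tested members of the lists passed in either direction. EP300, EHMT2 and KDM5A, close relatives of CREBBP, EHMT1 and KDM5B, were not among the hosts in the files used here.

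By Pearson's r of log2 CPM over the 6 libraries, DISC1 was among the tested host genes most like KAT2B (r = 0.927, 164 reads in all). Those most like EHMT1 were TBC1D15 (r = 0.973, 10 reads) and DSCC1 (r = 0.963, 14 reads), those most like CREBBP were GSPT1 (r = 0.915, 74 reads) and LOC102184668 (r = 0.910, 14 reads), and those most like KDM5B were LRRFIP1 (r = 0.978, 80 reads) and RIPK1 (r = 0.949, 32 reads). Each was picked from 430 genes over 6 points that share their library's depth, and between 1.86% and 6.28% of the genes had r over 0.8. LRRFIP1 had 36, 7 and 13 reads in Boer and 10, 11 and 3 in Macheng black, with Boer 1 highest and Macheng black 3 lowest as for KDM5B.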

How the data were processed

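Per the labels' protocols, total RNA of ovarian follicles was depleted of ribosomal RNA, with no enrichment for circular RNA named. The submitters' processing notes name Bowtie2 2.0.6 and TopHat2. Neither the circRNA caller nor its thresholds nor the annotation is given in the sources used here. The deposited counts of junction and non-junction reads are whole numbers without normalization, per the file headers. Breed and animal number come from the sample titles; for Boer 2 the code in the labels and that of the file differ in the last digit. Identifiers spread over several chromosomes or with a listed part over 1 Mb were set aside (27 of 829), leaving 780 host genes, of which 751 had a symbol in a table of assembly ARS1.2, used for names only.

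CircRNAs, and host genes as sums of their circRNAs, entered the quasi-likelihood test (edgeR 4.0.16, R 4.3.3) if 3 or more libraries had at least 2 reads, with library sizes and TMM factors of the circRNA table and Benjamini-Hochberg adjustment over all features tested. SE were derived from the fold change and F. Alternatives used DESeq2 1.42.0, other scalings and filters, single libraries left out, and a block. The fits were checked on simulated counts. Shares and numbers of circRNAs were compared with an exact permutation test (scipy 1.17.1, Python 3.11.15). CircRNAs in at least 3 libraries, or with at least 5 reads in 1 library, are named, as are the 2 most similar host genes of each member, of which 1 is not reported here. Members and lists were chosen with earlier results of these data known.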

Additional observations from a re-analysis of the deposited data

How the results depend on the processing

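No alternative called a circRNA or summed gene of the 4 hosts. The edgeR and DESeq2 adjusted p ran from 0.456 to 0.99999 for circRNAs and from 0.642 to 0.9997 for summed genes. Over all circRNAs, the 13 calls became 8 with DESeq2, 35 with no filter on low counts, 2 with at least 5 reads in 3 libraries and 1 to 21 with a library left out. Over all host genes, the 1 call became 6 without TMM, 3 with no filter, 0 with at least 5 reads in 3 libraries, 5 when scaled to host gene reads only and 0 to 3 with a library left out. In deviations from the breed means, same-numbered libraries (r from -0.0393 to 0.0118) were no more alike than differently numbered ones (-0.0237 to 0.0612). Whether the numbers mark a shared batch was not tested. With the replicate block, 11 circRNAs and 0 host genes passed.

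Some differences changed sign, and the cause was not tested. With a library left out, the log2 fold change of KAT2B ran from -0.084 to 0.31. For single KAT2B circRNAs it ran from -0.44 to 1.46 (154740553 to 154763525, and -0.00142 with relative log expression factors), -0.77 to 0.22 (154740553 to 154776600), -0.095 to 0.40 (the leading one) and -3.97 to 0.21 (154780802 to 154783338). It ran from -0.43 to 1.001 for CREBBP 3163168 to 3164804 and from -0.21 to 4.11 for EHMT1 105113226 to 105124267. The value of -3.97 was that without Boer 2, and that of 4.11 was without Macheng black 3. Either omission left a breed with no listed reads of the circRNA, so the value depends on the prior count. Differences of Boer minus Macheng black in leading share ran from -5.63 to 4.45 points for KAT2B (1.41 over tested circRNAs only), -6.73 to 1.69 for EHMT1 and -20.6 to 4.37 for KDM5B. Those in junction share ran from -0.179 to 0.105 points for CREBBP (0.281 as an unweighted mean) and -3.35 to 1.95 for EHMT1 (1.66 unweighted, 7.71 for the leading circRNA, an alternative chosen after seeing the data). That in number of KAT2B circRNAs ran from -1.33 to 0.667, and was 0.0333 after thinning. Without a change of sign, the log2 fold change ran from 0.21 to 0.63 for EHMT1, -0.46 to -0.19 for CREBBP, 0.33 to 2.33 for KDM5B and -1.39 to -0.69 for the leading CREBBP circRNA, and the junction share of KAT2B from 0.300 to 2.95 points. The leading circRNAs of CREBBP and KDM5B had 0 to 22 reads per library, which limits the precision of their values.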
